A study of Saccharomyces cerevisiae with 21 samples.

Results

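A set of 10 genes of phosphate supply in the budding yeast Saccharomyces cerevisiae was followed across 7 groups of cells, on 21 Affymetrix arrays with 3 arrays per group. They are 10 of the 5449 genes measured: the acid and alkaline phosphatase genes PHO5, PHO11, PHO3 and PHO8, the transporter genes PHO84 and PHO89, and the accessory and regulatory genes PHO86, PHO81, SPL2 and PHM6. Each was taken by its annotated symbol, and each had 1 probe set, so the rule of keeping a gene's brightest probe set decided nothing for them. The set was selected on earlier results of these arrays, namely log2 differences in which several of these genes were among the lowest with ISP1 in rich medium. For that reason both ISP1 comparisons in rich medium are given as values, with no test.

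Cells in the rich medium YPD were either heated with ISP1 for 45 min, heated for 45 min, given ISP1 for 45 min, or left as control. Cells in synthetic complete medium (SC) were given myristate with ISP1, given myristate for 45 min, or left as control. ISP1 is myriocin, an inhibitor of serine palmitoyltransferase, with which the making of sphingolipids starts, and myristate is a saturated fatty acid. The labels give no time for myristate with ISP1, and replicates 2 and 3 of that group carry another number after ISP in their descriptions than in their titles. Strain, temperature, doses, vehicle and the phosphate content of either medium are not given in the labels, and nothing there says that replicates were grown apart. The spread that p-values rest on may therefore be technical only.

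Yeast takes up inorganic phosphate through plasma membrane transporters and, when phosphate runs short, frees more of it outside the cell with secreted acid phosphatases. The cyclin and kinase pair Pho80 and Pho85 keeps the transcription factor Pho4 out of action while phosphate is plentiful, and Pho81 inhibits that kinase in starvation, so that Pho4, with Pho2, turns on the genes of the phosphate regulon. PHO3 stands apart in this set: it encodes an acid phosphatase that is known to be repressed by thiamine and not by phosphate.

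Levels are log2 signals of each probe set, so that a difference of 1 is a 2-fold change, and they compare groups and not genes. Replicate arrays correlated across genes with r between 0.993 and 0.998, and the median gene lay between 10.21 and 10.33 on every array. Probe sets for the other yeast species on the array had a median of 3.94, and 95% of them lay under 4.84. All 10 genes were above that limit on every array, the lowest value being 6.92 for PHM6 and the highest 14.26 for PHO84, where the highest signal of any probe set was 15.07. Differences are limma estimates ± standard error. Each adjusted p comes from limma with the Benjamini-Hochberg method over all 5449 genes, and a gene was called where it lay under 0.05. RNA quality was read beside them from the 3′ minus 5′ log2 signal of the control genes ACT1, SRB4 and SPT15, each with 2 probe pairs. With the first pair, SRB4 was at 3.01 ± 0.18 with heat, against 2.65 ± 0.11 in the YPD control, SPT15 at 2.30 ± 0.03 with heat, against 2.00 ± 0.18 in the YPD control, and ACT1 at 0.51 ± 0.03 with heat, against 0.38 ± 0.02 in the YPD control (SD, n = 3). With the second pair, SRB4 was at 3.06 ± 0.19 with heat, against 2.86 ± 0.02 in the YPD control, and SPT15 at 1.75 ± 0.08 with heat, against 1.54 ± 0.17 in the YPD control. For these 5 the heated arrays lay above the control arrays without overlap, whereas the second ACT1 pair was lower with heat, at 0.52 ± 0.01 against 0.56 ± 0.04 in the YPD control. Their part in the heat results below was not tested.

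**Figure D1:**
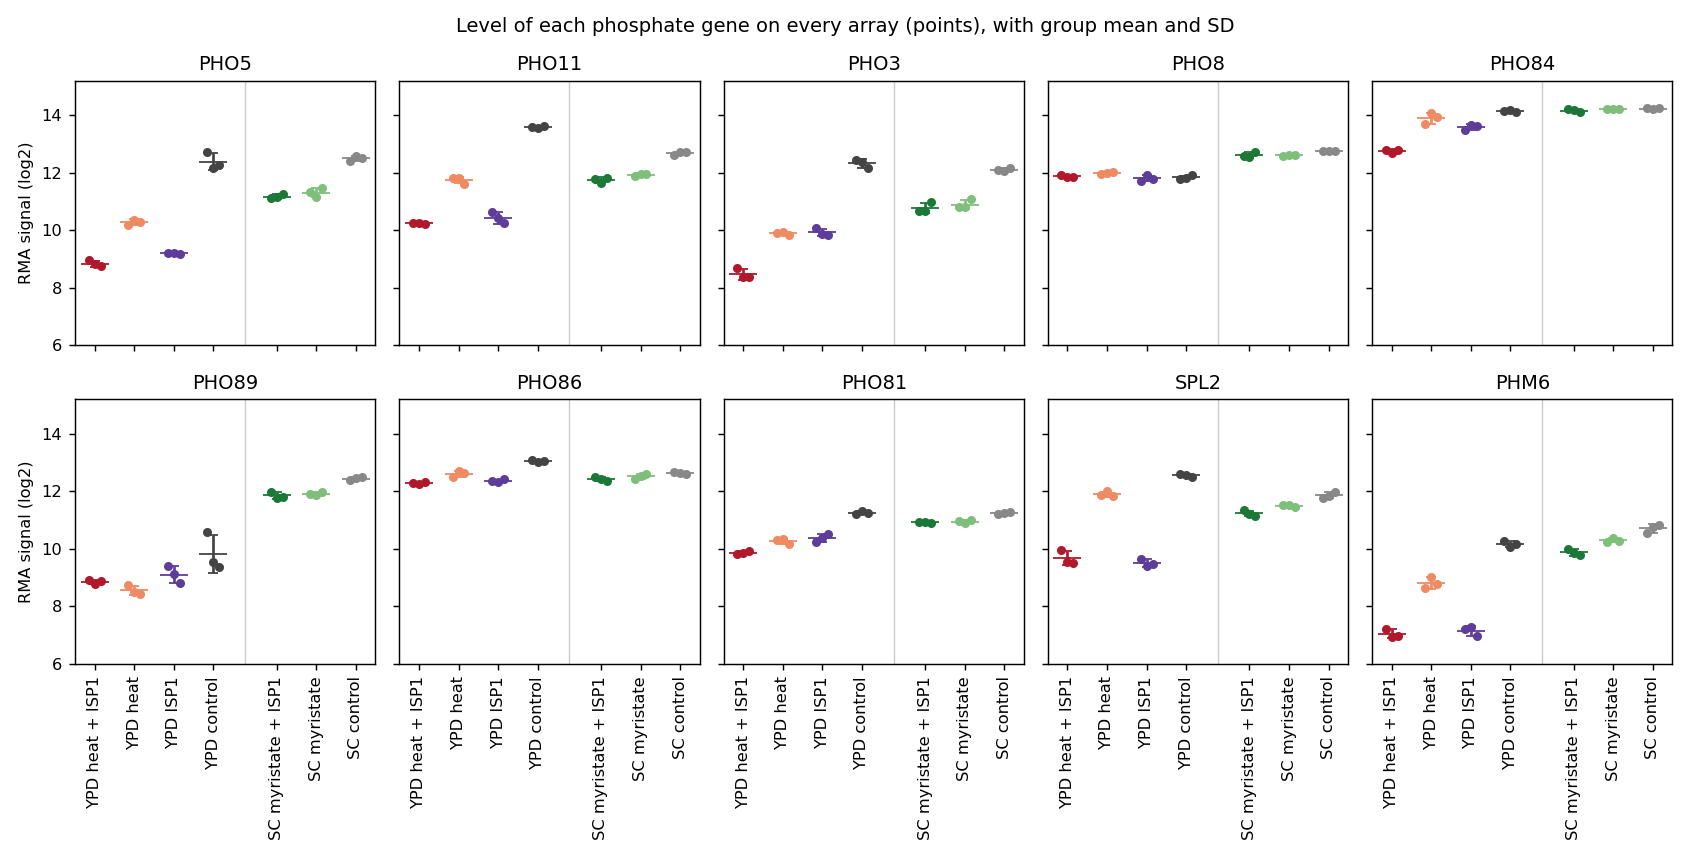
RMA signal (log2) of the 10 phosphate genes on each of the 21 arrays (points), with the mean and SD of each group (n = 3), YPD groups left of the grey line and SC groups right of it. PHO5, PHO11 and PHO3 are lower in each treated YPD group than in the YPD control, PHO8 stays between 11.72 and 12.03 in YPD, and the PHO89 panel shows the wide spread of the YPD control.

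The secreted acid phosphatase genes were lower with heat and with myristate. In such bulk cultures, fewer cells that express a gene and less of its RNA per cell cannot be told apart. PHO5, the main phosphate-repressed acid phosphatase, measured 10.20, 10.37 and 10.30 in heated YPD cells, against 12.73, 12.18 and 12.27 in the YPD control. No heated array reached the lowest control array, and PHO5 fell by 2.10 ± 0.11 on the log2 scale, a level 4.29-fold lower (adjusted p = 2.32e-12). In SC, PHO5 measured 11.32, 11.16 and 11.46 with myristate, against 12.41, 12.60 and 12.52 in the SC control. These groups did not overlap either, and PHO5 fell by 1.20 ± 0.11 (adjusted p = 7.16e-08).

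ISP1 gave PHO5 its lowest levels in YPD. The arrays read 9.22, 9.21 and 9.19 with ISP1 and 8.95, 8.81 and 8.74 with heat and ISP1. The difference from the YPD control was -3.19 ± 0.11 with ISP1, and the difference of heat with ISP1 from heat alone was -1.45 ± 0.11. In SC cells with myristate and ISP1, PHO5 stood at 11.11, 11.15 and 11.26, which overlapped the arrays with myristate alone. From highest to lowest, its groups ran SC control, YPD control, SC myristate, SC myristate with ISP1, YPD heat, YPD ISP1 and YPD heat with ISP1, and neighbours overlapped only at the control pair and at the myristate pair.

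PHO11, a second phosphate-repressed acid phosphatase gene, was read by a probe set of the kind whose name marks a match to more than 1 transcript. Its near-identical copy PHO12 has no probe set of its own in the annotation used here, so the value may hold both. PHO11 measured 11.81, 11.83 and 11.63 with heat, against 13.61, 13.56 and 13.63 in the YPD control, and fell by 1.84 ± 0.08 (adjusted p = 1.52e-13). With ISP1 it was at 10.62, 10.42 and 10.24, a difference of -3.17 ± 0.08 from the control, and with heat and ISP1 at 10.26, 10.24 and 10.21, a difference of -1.52 ± 0.08 from heat alone. Every treated YPD array thus lay below every YPD control array. Myristate lowered it as well, to 11.88, 11.98 and 11.97, against 12.62, 12.72 and 12.71 in the SC control, a fall of 0.74 ± 0.08 (adjusted p = 4.39e-07). Myristate with ISP1 gave 11.79, 11.65 and 11.82, all under the myristate arrays. PHO11 was lower in the SC control than in the YPD control, by -0.92 ± 0.08 (adjusted p = 2.08e-08).

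PHO3, the thiamine-repressed acid phosphatase gene and the chromosomal neighbour of PHO5, fell the most of the 10 genes with heat. It measured 9.91, 9.93 and 9.84 with heat, against 12.45, 12.39 and 12.15 in the YPD control, and fell by 2.44 ± 0.11, a level 5.43-fold lower (adjusted p = 2.07e-13). ISP1 gave nearly the same level as heat, with arrays at 10.07, 9.87 and 9.84 and a difference of -2.41 ± 0.11 from the control. The arrays of heat with ISP1 lay clearly below those of either treatment, at 8.68, 8.36 and 8.36. With myristate the arrays read 10.80, 10.80 and 11.09, against 12.10, 12.07 and 12.17 in the SC control. These groups did not overlap, and PHO3 fell by 1.22 ± 0.11 (adjusted p = 4.69e-08). With myristate and ISP1 it was at 10.69, 10.68 and 10.98, and only the last of these lay within the range of myristate alone. PHO3 and PHO5 are similar in sequence, and binding of one transcript to the other's probe set was not tested.

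PHO8, which encodes the alkaline phosphatase of the vacuole, moved little within a medium. It measured 11.97, 12.01 and 12.03 with heat, against 11.80, 11.82 and 11.91 in the YPD control, and rose by 0.16 ± 0.06 (adjusted p = 0.0154). That call was lost without YPD control array 1 (0.136, adjusted p = 0.0594). With ISP1 it read 11.72, 11.93 and 11.80, with heat and ISP1 11.92, 11.87 and 11.86. The difference of ISP1 from the control was -0.03 ± 0.06 and the arrays of both groups overlapped. Myristate gave 12.59, 12.61 and 12.62 and lowered it by -0.15 ± 0.06 (adjusted p = 0.0291), a call lost with median centring (adjusted p = 0.0750) and without any one array except myristate array 3 (adjusted p from 0.0536 to 0.0813). The large difference of PHO8 was between media: the SC control arrays read 12.75, 12.75 and 12.78, against 11.80, 11.82 and 11.91 in the YPD control, 0.91 ± 0.06 higher in SC (adjusted p = 1.77e-10).

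Of the transporter genes, PHO84, which encodes the high-affinity proton and phosphate symporter, was lowest with heat and ISP1 together. It measured 12.81, 12.68 and 12.79 with heat and ISP1, 13.70, 14.07 and 13.95 with heat, 13.50, 13.67 and 13.62 with ISP1, and 14.17, 14.18 and 14.11 in the YPD control. Only the combined treatment brought every array below 13. The difference of heat with ISP1 was -0.84 ± 0.07 from ISP1 alone (adjusted p = 4.78e-09) and -1.15 ± 0.07 from heat alone. All arrays behind that p also serve in the comparisons that selected the genes. The difference of ISP1 from the YPD control was -0.56 ± 0.07, with no overlap. Heat alone lowered PHO84 by -0.25 ± 0.07 (adjusted p = 0.00428). That value was -0.14 without heat array 1 (adjusted p = 0.0367) and -0.14, with the call lost, under quantile normalization over the yeast's own probe sets (adjusted p = 0.0915). In SC the 9 arrays spanned only 14.11 to 14.26, and myristate made a difference of -0.01 ± 0.07 (adjusted p = 0.888, 95% interval -0.16 to 0.14). On every YPD control and SC array PHO84 lay within 1 log2 unit of the highest signal of any probe set, and saturation of its signal was not tested.

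PHO89 encodes the sodium and phosphate cotransporter, which works at alkaline pH. Its levels set the media apart: 12.38, 12.45 and 12.51 in the SC control, against 10.57, 9.53 and 9.36 in the YPD control, 2.63 ± 0.21 higher in SC and 6.17-fold (adjusted p = 7.31e-09). It ranked 5423rd from the lowest of the 5449 genes in that comparison. With heat it measured 8.73, 8.50 and 8.41 and fell by 1.27 ± 0.21 from the YPD control (adjusted p = 1.88e-05), or by 0.90 without the high control array 1, still past the threshold. With ISP1 it read 9.38, 9.13 and 8.79, and the difference from the control was -0.72 ± 0.21, or -0.35 without that array. Myristate gave 11.91, 11.87 and 11.97, a fall of 0.53 ± 0.21 from the SC control (adjusted p = 0.0418), and this call was lost whichever of the 6 arrays was left out (adjusted p from 0.0584 to 0.1). Myristate with ISP1 gave 11.99, 11.78 and 11.80, which overlapped myristate alone. In heated cells PHO89 was the one member that lay higher with ISP1 than without it, at 8.90, 8.76 and 8.88 against 8.73, 8.50 and 8.41, a difference of 0.30 ± 0.21 whose 95% interval ran from -0.14 to 0.74.

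PHO86 encodes a protein of the endoplasmic reticulum that Pho84 needs to leave it. It measured 12.49, 12.70 and 12.65 with heat, against 13.08, 13.01 and 13.06 in the YPD control, and fell by 0.44 ± 0.06 (adjusted p = 2.55e-06). With ISP1 it read 12.34, 12.31 and 12.41, a difference of -0.70 ± 0.06 from the control, and heated cells with ISP1 overlapped these at 12.28, 12.26 and 12.34. The YPD control stood alone at the top: each of the other groups overlapped its neighbour in the order of levels. In SC it measured 12.42, 12.54 and 12.60 with myristate, against 12.69, 12.65 and 12.60 in the SC control, a difference of -0.13 ± 0.06 that did not pass (adjusted p = 0.0946).

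The regulators and the remaining phosphate-responsive genes fell too, in 2 patterns. PHO81, the gene of the kinase inhibitor, measured 9.82, 9.84 and 9.92 with heat and ISP1, 10.30, 10.35 and 10.16 with heat, 10.25, 10.39 and 10.51 with ISP1, and 11.22, 11.30 and 11.25 in the YPD control. Heat and ISP1 thus brought it to overlapping levels, and both together to a lower one. It fell by 0.99 ± 0.06 with heat (adjusted p = 3.58e-11), by 0.52 ± 0.06 when heat was added to ISP1 (adjusted p = 3.87e-07) and by 0.29 ± 0.06 with myristate (adjusted p = 0.000746). The p-values for heat and for heat added to ISP1 are not free of the selection of the genes. The myristate arrays read 10.96, 10.90 and 10.99, against 11.20, 11.24 and 11.26 in the SC control, and did not overlap them.

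SPL2 and PHM6 showed the other pattern, in which ISP1 gave the lowest level whether or not the cells were heated. It was not theirs alone. For PHO11 and PHO86 too, both YPD groups with ISP1 overlapped at the bottom, with heat alone between them and the YPD control. SPL2, whose product restrains low-affinity phosphate uptake, measured 9.96, 9.55 and 9.51 with heat and ISP1, 11.86, 12.00 and 11.83 with heat, 9.65, 9.38 and 9.47 with ISP1, and 12.59, 12.57 and 12.51 in the YPD control. The 2 groups with ISP1 overlapped each other and lay more than 1 log2 unit under the other 2. Heat alone lowered SPL2 by -0.66 ± 0.10 (adjusted p = 6.31e-06). Heat added to ISP1 made a difference of 0.17 ± 0.10 (adjusted p = 0.126), which passed without ISP1 array 1 (0.25, adjusted p = 0.0436) or without heat with ISP1 array 3 (0.25, adjusted p = 0.0379). Its difference was -3.06 ± 0.10 for ISP1 against control and -2.23 ± 0.10 for ISP1 added to heat. In SC the gene measured 11.51, 11.51 and 11.45 with myristate, against 11.77, 11.85 and 11.98 in the SC control, and fell by 0.37 ± 0.10 (adjusted p = 0.00406).

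PHM6 is a gene of unknown function whose transcript follows phosphate supply. It measured 7.22, 6.92 and 6.98 with heat and ISP1, 8.64, 9.02 and 8.77 with heat, 7.20, 7.28 and 6.94 with ISP1, and 10.26, 10.07 and 10.15 in the YPD control. As for SPL2, both groups with ISP1 overlapped at the bottom, and heat alone lay between them and the control. Heat lowered PHM6 by -1.36 ± 0.11 (adjusted p = 1.42e-09). In SC it measured 10.24, 10.38 and 10.27 with myristate, against 10.54, 10.75 and 10.83 in the SC control, and fell by 0.41 ± 0.11 (adjusted p = 0.00429). Heat added to ISP1 made a difference of -0.10 ± 0.11 (adjusted p = 0.407), which was -0.42 and passed under quantile normalization over the yeast's own probe sets (adjusted p = 0.00176). PHM6 had an ISP1 difference of -3.02 ± 0.11 without heat and -1.77 ± 0.11 with heat.

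**Figure D2:**
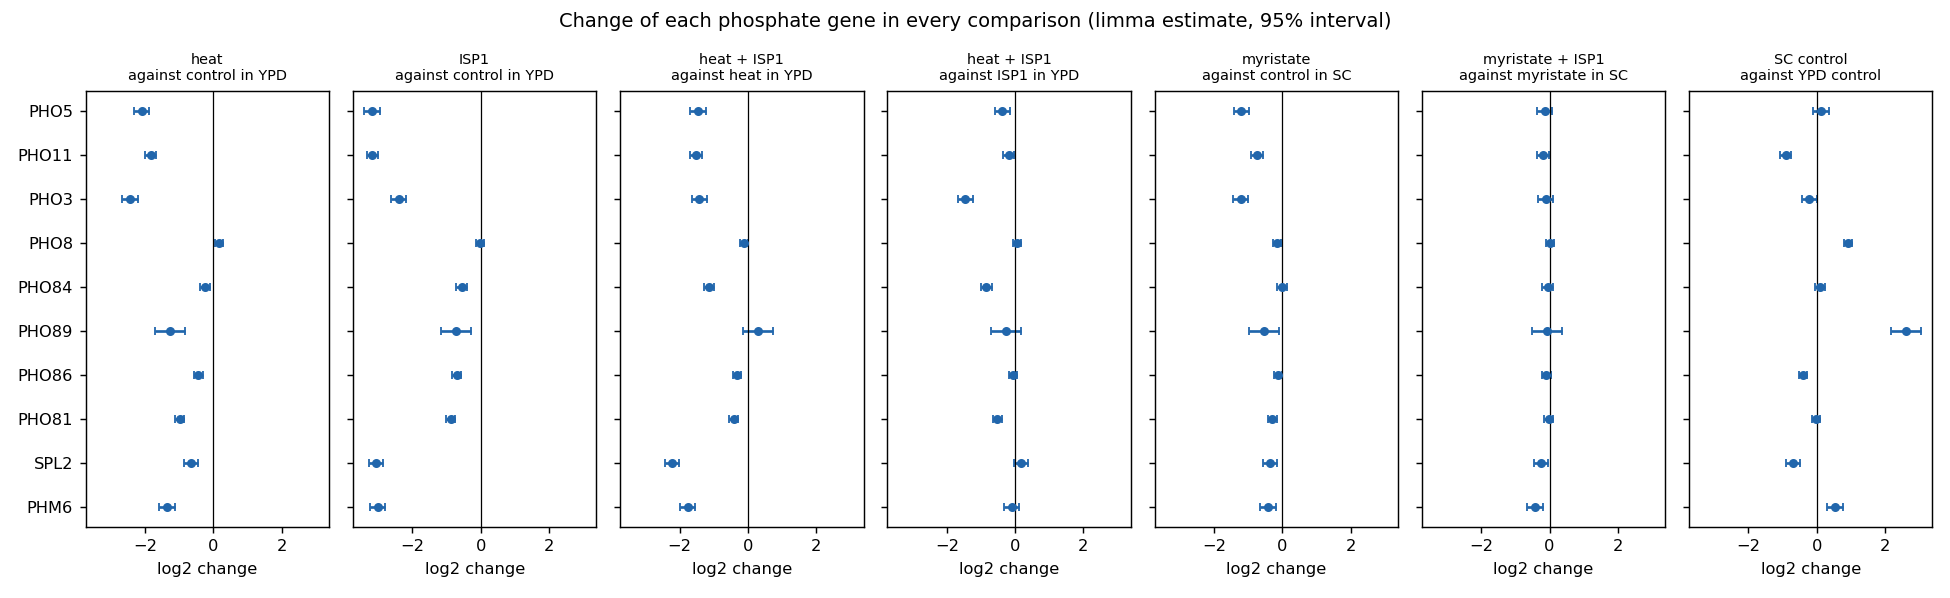
Log2 change of each of the 10 phosphate genes in 7 comparisons, as limma estimates (points) with 95% intervals (bars) from 3 arrays per group. Values left of the zero line are lower in the group named first. PHO5, PHO11, SPL2 and PHM6 lie near -3 for ISP1 against control in YPD, and PHO89 stands at 2.63 for SC control against YPD control. For ISP1 added to myristate the 10 genes lie between -0.42 for PHM6 and 0.01 for PHO8.

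Counted over the set, 9 of the 10 genes fell with heat and PHO8 rose, where 40.9% of all genes tested fell and 39.8% rose. The median change of the 10 was -1.13, beside -0.0035 over all genes. Heat called 80.6% of all genes in one direction or the other. By size of change PHO3 ranked 84th from the lowest of the 5449 genes, PHO5 168th and PHO11 260th, whereas PHO84 ranked 2073rd. When heat was added to ISP1, 5 of the 10 fell and 5 did not pass, against 37.2% of all genes that fell, with a median of -0.22 beside 0.03 over all genes. All arrays of that comparison, and all arrays of heat against control, also serve in the ISP1 comparisons that selected the genes. The counts and calls of both are therefore not free of the selection. With heat added to ISP1, the 5 that fell were PHO3 (-1.46 ± 0.11), PHO84 (-0.84 ± 0.07), PHO81 (-0.52 ± 0.06), PHO5 (-0.37 ± 0.11, adjusted p = 0.00491) and PHO11 (-0.19 ± 0.08, adjusted p = 0.0350). The call of PHO11 was lost in a fit of these arrays alone (adjusted p = 0.108) and without any one array except ISP1 array 3, and its value was -0.09 without ISP1 array 1 (adjusted p = 0.258).

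In the comparisons on which the genes were selected, the values are a description. With ISP1 in YPD the 10 differences ran between -3.19 for PHO5 and -0.03 for PHO8, with a median of -1.64 beside -0.04 over all genes, and the 5 lowest of the 5449 genes were PHO5, PHO11, SPL2, PHM6 and PHO3. With ISP1 added to heat they ran between -2.23 for SPL2 and 0.30 for PHO89, with a median of -1.29 beside 0.01 over all genes. The comparisons of heat and of ISP1 with the control share the 3 YPD control arrays. Heat against control also shares the heat arrays with ISP1 added to heat, and the comparison between media shares the YPD control arrays. How far the selection moved the values of these comparisons was not tested.

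The heat change and the ISP1 change can be summed and set beside the change with both treatments. These values rest on the ISP1 comparisons that selected the genes and are given with no test. PHO5 was -3.56 from the control with both treatments, where the heat change and the ISP1 change sum to -5.29. The ISP1 difference was smaller in size with heat than without it for PHO5 by 1.73 ± 0.15, for PHO11 by 1.65 ± 0.11, for PHM6 by 1.25 ± 0.15, for PHO3 by 0.98 ± 0.15 and for SPL2 by 0.83 ± 0.14. PHO84 went the other way: both treatments gave -1.39, beyond the sum of -0.80, and the ISP1 difference was larger in size with heat, by -0.59 ± 0.10. In the YPD control PHO84 lay near the highest signal of any probe set, and the part of saturation in this was not tested. PHO8 had a sum of 0.13 and a measured value of 0.03.

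**Figure D3:**
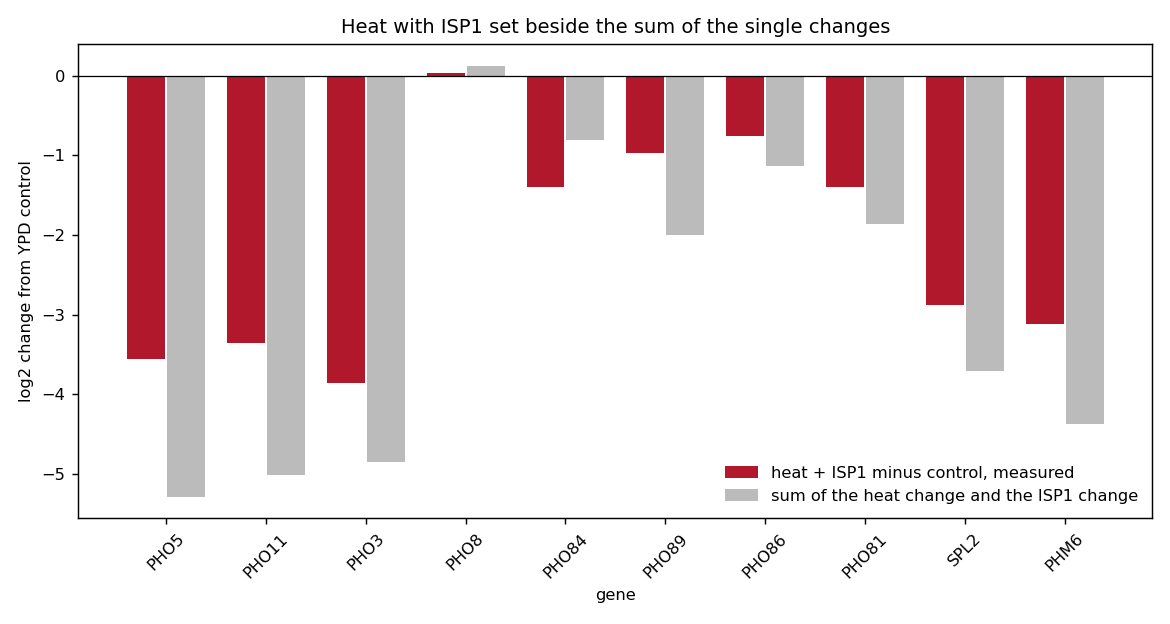
Log2 change from the YPD control for each of the 10 phosphate genes (gene on the horizontal axis): the measured change with heat and ISP1 together (red) beside the sum of the heat change and the ISP1 change (grey), from group means of 3 arrays. PHO84 is the gene whose red bar reaches clearly below its grey bar (-1.39 against -0.80), and for PHO5 the grey bar reaches -5.29 and the red bar -3.56. Saturation of the PHO84 signal was not tested.

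The SC arrays share none with the YPD groups. With myristate 8 of the 10 genes fell and PHO84 and PHO86 did not pass, where 25.7% of all genes fell. The median change was -0.39, beside -0.01 over all genes. PHO3 and PHO5 ranked 16th and 19th from the lowest of the 5449 genes. SPL2 ranked 729th and PHM6 636th, so the genes lowest with ISP1 in YPD were not all among the lowest with myristate. Of the RNA quality pairs, the first ACT1 pair was higher with myristate, at 0.17 ± 0.01 against 0.13 ± 0.01 in the SC control, and the second was lower, at 0.32 ± 0.02 with myristate against 0.36 ± 0.01 in the SC control, both without overlap (SD, n = 3). The other 4 pairs overlapped: SRB4 was at 1.84 ± 0.08 and 1.90 ± 0.09 with myristate, against 1.85 ± 0.10 and 1.78 ± 0.12 in the SC control, and SPT15 at 2.17 ± 0.13 and 1.76 ± 0.21 with myristate, against 2.01 ± 0.11 and 1.65 ± 0.10 in the SC control. Their part in the myristate results was not tested.

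**Figure D4:**
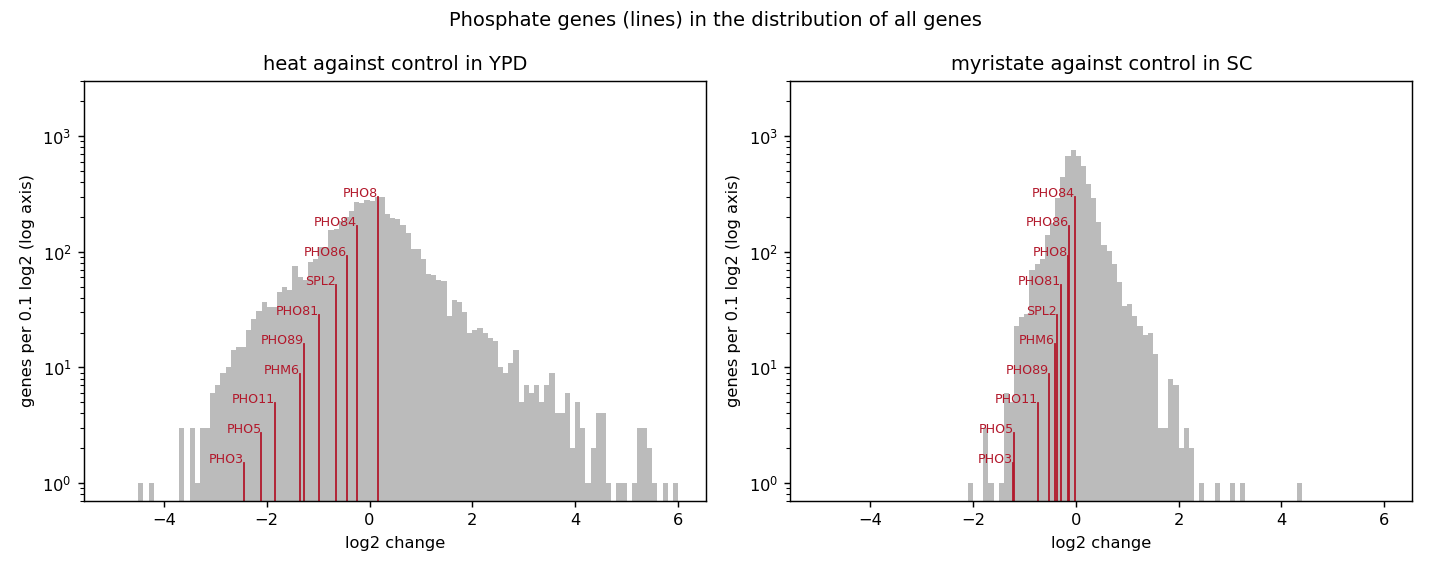
Histograms of the log2 change of all 5449 genes (genes per 0.1 log2, on a log axis) for heat against control in YPD and for myristate against control in SC, with a red line at the value of each of the 10 phosphate genes. The heights of the red lines have no meaning. With heat the lines run between -2.44 for PHO3 and 0.16 for PHO8, and with myristate between -1.22 for PHO3 and -0.01 for PHO84.

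Adding ISP1 to myristate called none of the 10 by limma, where 0.0184% of all genes were called. The single gene called was VHR1, a regulator of biotin genes, which is named here after its value was seen (0.48 ± 0.08, adjusted p = 0.0363). At an unadjusted p under 0.05, 3 of the 10 lay lower, PHM6, SPL2 and PHO11, where 2.06% of all genes did. PHM6 measured 10.001, 9.83 and 9.79 with myristate and ISP1, against 10.24, 10.38 and 10.27 with myristate. The groups did not overlap, and the difference was -0.42 ± 0.11 (adjusted p = 0.213, 95% interval -0.65 to -0.19), the fourth lowest of all genes. SPL2 measured 11.33, 11.22 and 11.14 with myristate and ISP1, under each array with myristate alone. For SPL2 the difference was -0.26 ± 0.10 (adjusted p = 0.657, interval -0.47 to -0.05) and for PHO11 it was -0.19 ± 0.08 (adjusted p = 0.677, interval -0.35 to -0.02). The interval for PHO5 ran from -0.37 to 0.09. These intervals lie far from the differences near -3 of the same genes with ISP1 in YPD, in cells that differ in medium, in myristate and possibly in treatment time. The difference between the media was not tested.

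Between the untreated media, 3 of the 10 genes were higher in SC and 3 lower, where 18.9% of all genes were higher and 40.9% lower and the median gene was at -0.13. PHO89, PHO8 and PHM6 (0.54 ± 0.11, adjusted p = 0.000376) were higher in SC. PHO11, SPL2 (-0.69 ± 0.10, adjusted p = 1.14e-05) and PHO86 (-0.41 ± 0.06, adjusted p = 2.12e-05) were lower. PHO5 was at 0.12 ± 0.11 (adjusted p = 0.361) and passed without YPD control array 1 (0.29, adjusted p = 0.00942), and PHO3 was at -0.22 ± 0.11 (adjusted p = 0.0853) and passed without YPD control array 3 (-0.31, adjusted p = 0.0289). Of the RNA quality pairs, SRB4 stood at 1.85 ± 0.10 and 1.78 ± 0.12 in the SC control, against 2.65 ± 0.11 and 2.86 ± 0.02 in the YPD control, and ACT1 at 0.13 ± 0.01 and 0.36 ± 0.01 in the SC control, against 0.38 ± 0.02 and 0.56 ± 0.04 in the YPD control (SD, n = 3). SPT15 overlapped between media, at 2.01 ± 0.11 and 1.65 ± 0.10 in the SC control, against 2.00 ± 0.18 and 1.54 ± 0.17 in the YPD control. Their part in these differences was not tested.

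Genes that sense and signal phosphate were 10 in number. With heat 4 rose, 4 fell and 2 did not pass, near the shares of all genes (39.8% higher, 40.9% lower), with a median of 0.02. PHO4, the gene of the transcription factor, fell by 0.88 ± 0.08 (adjusted p = 6.11e-09), and KCS1, an inositol pyrophosphate kinase gene, by 0.77 ± 0.07 (adjusted p = 4.56e-09). PHO2, the gene of Pho4's partner, rose by 0.63 ± 0.08 (adjusted p = 1.33e-06). With ISP1 in YPD, PHO4 differed from the control by -0.53 ± 0.08, and with myristate by 0.02 ± 0.08 (adjusted p = 0.867). With myristate 3 of the 10 rose, 2 fell and 5 did not pass, where 26.6% of all genes rose and 25.7% fell.

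Of 8 other genes listed under phosphate transport, 3 rose with heat, 4 fell and 1 did not pass, near the shares of all genes (39.8% higher, 40.9% lower). PHO90, a low-affinity transporter gene, averaged 9.39 ± 0.20 with heat, against 11.72 ± 0.04 in the YPD control (SD, n = 3), and fell by 2.33 ± 0.10 (adjusted p = 1.61e-13). PHO87, the gene of the second low-affinity transporter, averaged 10.81 ± 0.08 with heat, against 10.06 ± 0.04 in the YPD control. GIT1, a permease gene for glycerophosphoinositol, rose by 1.71 ± 0.14 (adjusted p = 1.48e-09) and the mitochondrial carrier gene PIC2 by 1.30 ± 0.06 (adjusted p = 2.23e-13). With myristate 2 of the 8 rose, 2 fell and 4 did not pass, where 26.6% of all genes rose and 25.7% fell. PIC2 rose by 0.56 ± 0.06 and PHO90 fell by 0.52 ± 0.10.

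Among the 4 other phosphatase and phosphate-responsive genes measured, 3 rose with heat and 1 fell, where 39.8% of all genes rose and 40.9% fell. DIA3, a gene related to the acid phosphatases, rose by 3.24 ± 0.12 (adjusted p = 1.57e-14), PHM8, a lysophosphatidic acid phosphatase gene, by 2.25 ± 0.05 (adjusted p = 5.22e-17) and GDE1, a phosphodiesterase gene, by 1.02 ± 0.11 (adjusted p = 1.10e-07). DIA3 and PHM8 also rose with myristate, by 0.90 ± 0.12 and 0.62 ± 0.05. Of 6 polyphosphate genes, 5 fell with heat and 1 rose, where 40.9% of all genes fell, and 3 fell with myristate and 3 did not pass, where 25.7% of all genes fell. Their median was -0.70 with heat and -0.14 with myristate. Genes of the vacuolar polyphosphate synthase led, with VTC2 at -1.51 ± 0.05 (adjusted p = 1.06e-14) and VTC3 at -1.30 ± 0.09 (adjusted p = 1.81e-10) for heat, and VTC2 at -0.53 ± 0.05 (adjusted p = 2.45e-07) for myristate. With ISP1 in YPD, VTC3 differed from the control by -1.68 ± 0.09.

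Thiamine-repressed genes and their regulators were listed because PHO3 is one of the former. Of 15 measured, 7 rose with heat, 3 fell and 5 did not pass, where 39.8% of all genes rose and 40.9% fell, with a median of 0.05. THI13, of thiamine synthesis, rose by 1.75 ± 0.09 (adjusted p = 2.44e-12). The 3 that fell were PET18 (-0.74 ± 0.10), PDC2 (-0.57 ± 0.06) and THI7, the thiamine transporter gene (-0.56 ± 0.11). With myristate 2 rose, 3 fell and 10 did not pass, where 26.6% of all genes rose and 25.7% fell. THI7 fell by 1.01 ± 0.11 (adjusted p = 4.78e-07) and THI13 rose by 0.42 ± 0.09 (adjusted p = 0.000853). THI13 was read by a probe set that can bind related transcripts.

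**Figure D5:**
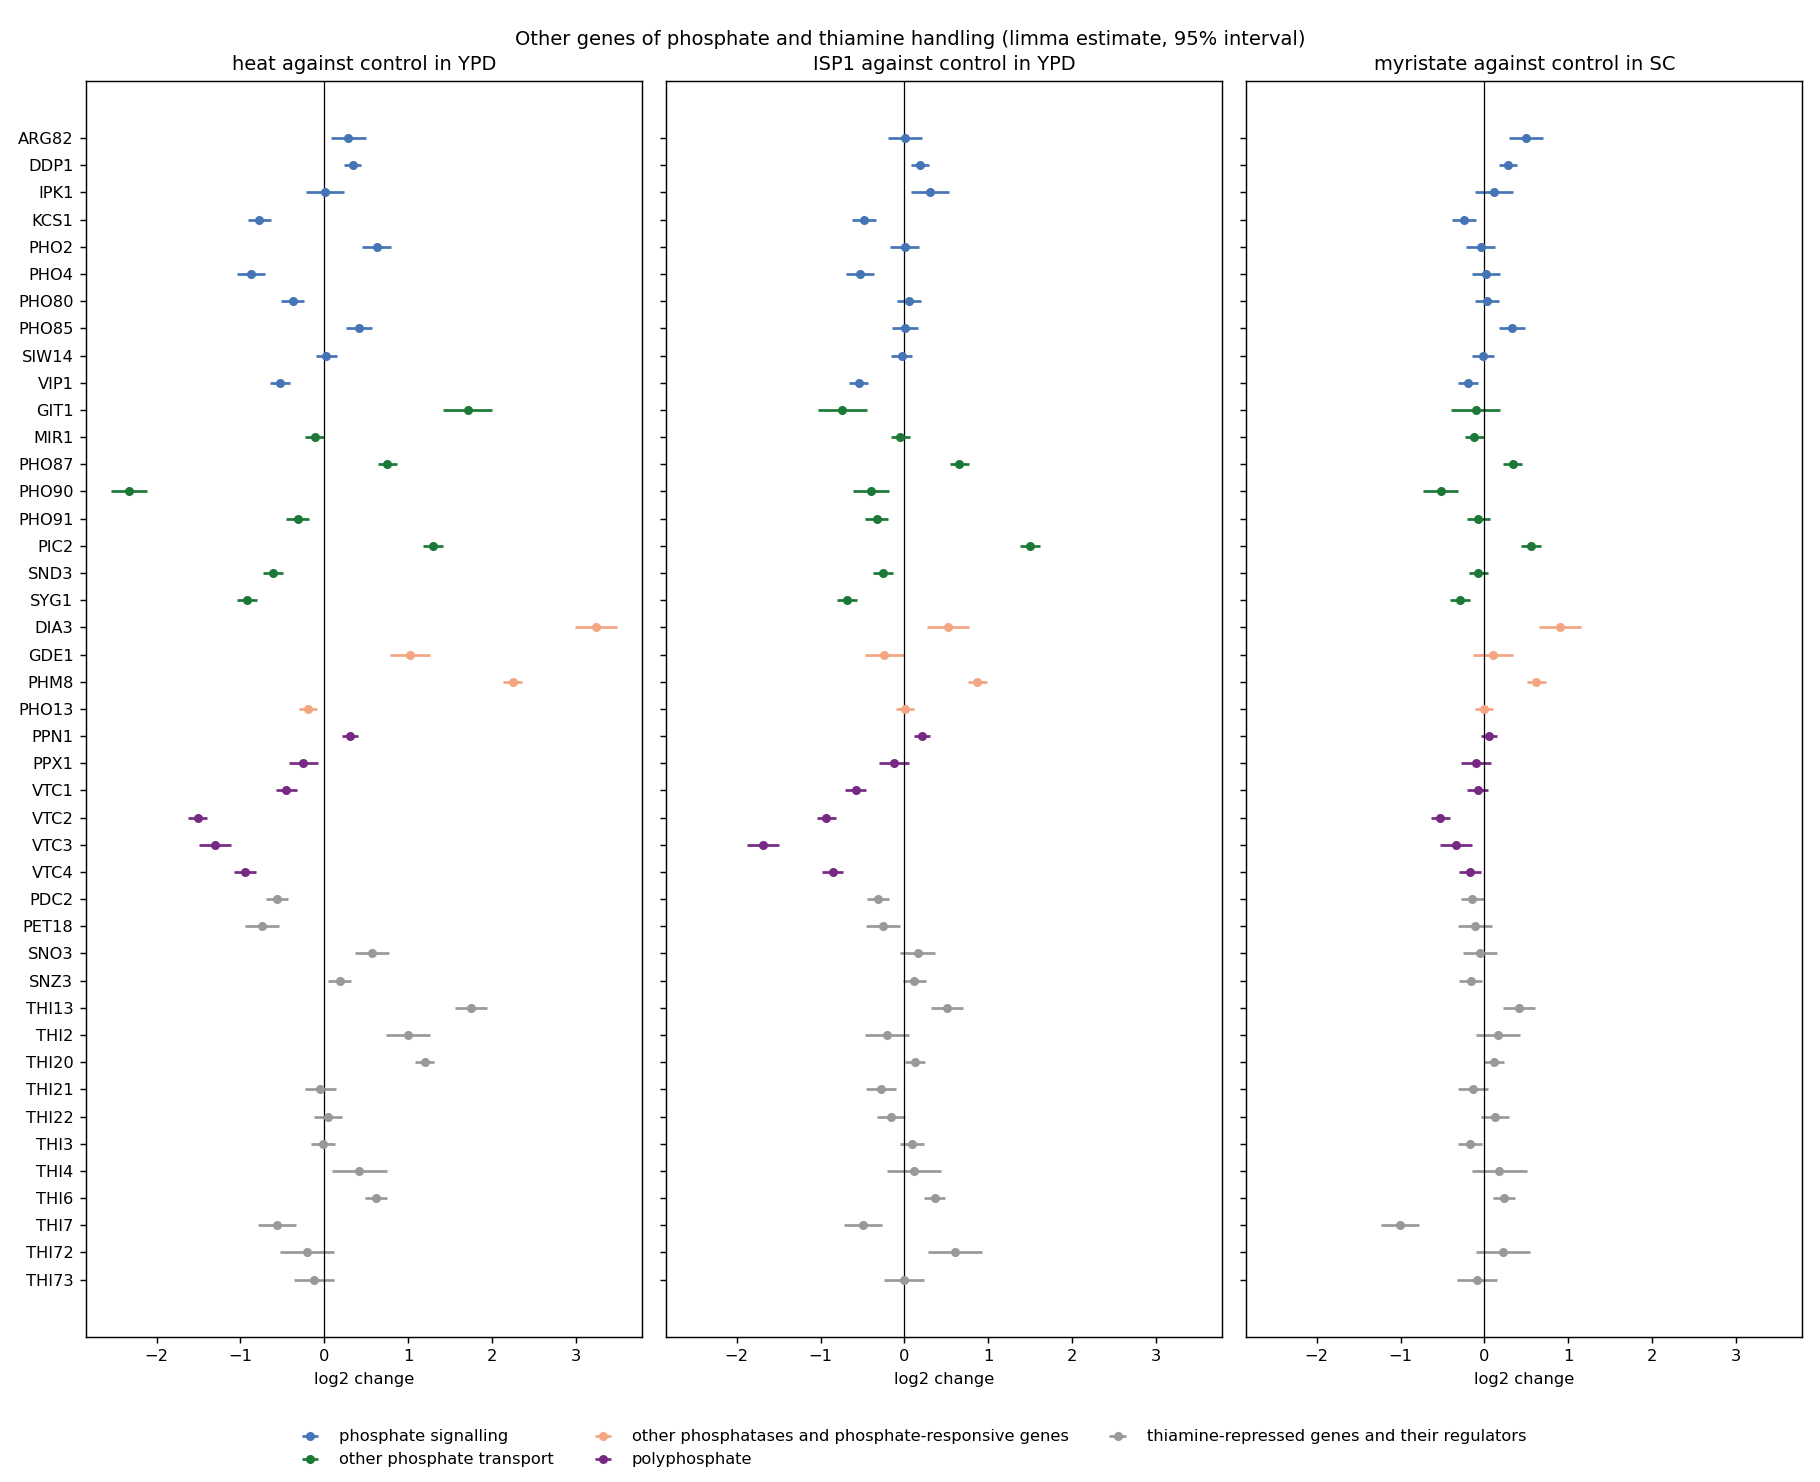
Log2 change of the other measured genes of phosphate and thiamine handling, as limma estimates with 95% intervals, for heat and for ISP1 against control in YPD and for myristate against control in SC, coloured by list. The VTC genes lie left of zero in each panel, PHO90 is lowest with heat at -2.33, and DIA3 is highest with heat at 3.24.

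Across the 7 group means, the profiles of the members were set side by side by Pearson's r, as a description of 7 points that share arrays and normalization. The selection of genes with low values for ISP1 in YPD favours a high r between them. Not all pairs were alike: PHO89 had r of 0.08 with PHO86 and 0.38 with SPL2, and PHO11 had 0.31 with PHO8. PHO3 and PHO81 were the most alike (r = 0.976), PHO5 had r of 0.957 with PHO3, 0.959 with PHM6 and 0.949 with PHO11, and SPL2 had 0.944 with PHO11. PHO8 followed PHO89 (0.941), both being higher in SC, and had -0.07 with PHO86. Among 2418 other genes whose group means spanned at least 1 log2 unit, the closest to PHO5 were VTC3 (0.981), TGS1 (0.969) and FET4 (0.968). The closest to PHO84 were EXG1 (0.976), VTC1 (0.954) and STD1 (0.952), those to PHO3 were SVL3 (0.992), ATC1 (0.992) and IRR1 (0.984), and those to SPL2 reached no more than 0.892 for TCD2, 0.879 for YNL058C and 0.841 for NIS1.

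Of the genes next to the members on the chromosomes, 15 were measured that are not members themselves. With heat 7 of them fell and 5 rose, where 40.9% of all genes fell and 39.8% rose, and their median was -0.16. With myristate 7 fell and 3 rose, where 25.7% of all genes fell and 26.6% rose, with a median of -0.09. With ISP1 in YPD 7 fell and 4 rose, where 33.2% of all genes fell and 27.9% rose, with a median of -0.13. With ISP1 added to heat 6 fell and 2 rose, where 16.3% of all genes fell and 16.5% rose, with a median of -0.08. Between media 10 were lower in SC and 2 higher, where 40.9% of all genes were lower and 18.9% higher. With heat added to ISP1 7 fell and 5 rose, where 37.2% of all genes fell and 40% rose. None passed with ISP1 added to myristate. The heat changes of the neighbours ran between -2.96 for YAR068W, beside PHO11, and 2.93 for ARO9, beside SPL2, both named here after their values were seen.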

How the data were processed

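The authors deposited 1 table of log2 signal per probe set for 21 arrays of biotin-labelled total RNA, and affy and RMA are named per the submitters' processing notes, with no version. RMA's quantile normalization hides a change shared by most genes. Of 10928 probe sets, 5498 carried 1 S. cerevisiae gene and 1746 a gene of another species, by the platform annotation, and the brightest probe set of each gene was kept. Groups and replicate numbers came from the titles. A linear model with a mean per group was fitted to the 21 arrays together with limma 3.58.1 under R 4.3.3 (lmFit, then eBayes), leaving 14 residual degrees of freedom. The members, lists and tests were chosen with earlier results of these data known. With 3 arrays in each group, no exact permutation test can give a p under 0.1, and none was run.

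Named genes are the 10 members, PHO4, up to 3 called genes with the largest change per list and comparison (not all are printed), and the 3 genes most like PHO5, PHO84, SPL2 and PHO3. Genes of the thiamine list that fell with heat are named as well. PHO12, VTC5, PPN2, THI5, THI11, THI12, SNZ2 and SNO2 are not analysed here. PHO88 is listed as SND3. No sequence is shown, since none was at hand. On simulated data with independent noise and 200 of 5449 genes changed, the fit called 98% to 100% of those changed by 1 log2 unit where 2 groups were compared. For the contrast of 4 groups it called 93%. Of those changed by 0.5 log2 units it called 83% to 87% where 2 groups were compared, and 67% for the contrast of 4 groups. False ones made up 3.03% to 9.76% of its calls. On the arrays themselves heat called 80.6% of all genes, and deviations correlated as given next. The simulated rates may therefore not hold for them. Deviations from the group means correlated above 0.1 in all 3 pairs of equal number when ISP1 was set against control (0.230 to 0.530), and likewise for ISP1 added to heat (0.172 to 0.433), heat added to ISP1 (0.132 to 0.350) and myristate (0.322 to 0.626), not for the other comparisons. Precision is limited by how many arrays there are, and the alternatives are named in the closing section.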

Additional observations from a re-analysis of the deposited data

Results flagged for a closer look

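The ISP1 effect with heat minus the ISP1 effect without heat was picked out by an interaction contrast for each of the 10 genes except PHO8. The same contrast called 40.9% of all genes, 21.8% as higher and 19.1% as lower. It was 1.73 for PHO5, 1.65 for PHO11, 1.25 for PHM6, 1.02 for PHO89, 0.98 for PHO3, 0.83 for SPL2, 0.46 for PHO81 and 0.38 for PHO86 on the log2 scale, and -0.59 for PHO84. For PHO89 it was 0.65 without YPD control array 1. The contrast is built from the ISP1 comparisons on which the genes were selected, and a choice of genes with a low value for ISP1 without heat favours positive values here, so the values are a description and no test of these genes.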

How the results depend on the processing

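Each comparison was refitted on its own arrays alone, with the replicate number as a block, without dim genes, after quantile normalization or median centring restricted to the yeast's own probe sets, with a trended and robust variance prior, with probe sets averaged per gene, and without each array in turn. In the comparisons not treated as selecting them (some share arrays with selecting ones), the number of members called stayed within 1.5 times under each. With 1 array left out it was 9 to 10 for heat, 4 to 5 for heat added to ISP1, 6 to 7 for myristate, 0 for ISP1 added to myristate and 6 to 7 between media. The replicate block left these counts at 10, 5, 8, 0 and 6 and changed no call of a member. Over all genes, ISP1 added to myristate called 0 on its own arrays alone, 3 with the replicate block, 3 with quantile normalization, 2 with median centring and 0 to 2 with 1 array left out. Of the members' values, those that turned sign lay near 0 and did not pass on either side. For PHO8 these were 0.0018 without YPD control array 3 and 0.0154 without ISP1 array 1 for ISP1 in YPD (range with 1 array left out -0.087 to 0.0154), and, for ISP1 added to myristate, -0.008 with quantile normalization, -0.013 with median centring, -0.0009 without myristate array 1 and -0.0459 without myristate with ISP1 array 3 (range -0.0459 to 0.0489). For PHO84 with myristate they were 0.034 with quantile normalization and 0.009 with median centring, and for PHO81 between media 0.0094 and 0.0404. The cause was not tested. With 3 arrays per group, standard errors of the differences between 2 groups ran between 0.06 for PHO8 and 0.21 for PHO89, which limits what could be called.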
